A study of Mus musculus with 8 samples.

Results

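The subunits of the transcription factor NF-kappaB and the inhibitors that hold it back were followed in neurons whose network activity had been raised. The set was given as 10 gene symbols: the subunit genes Rel, Rela, Relb, Nfkb1 and Nfkb2, the classical inhibitor genes Nfkbia, Nfkbib and Nfkbie, and the nuclear members of the inhibitor family, Nfkbiz and Bcl3. Where a gene had several transcript clusters, the rule took the one whose mean signal was highest. In all, 9 of the 10 symbols were measured among 19938 genes tested, each by 1 transcript cluster, and Nfkb1 was not analysed here. The rule itself names symbols and uses no change between times, but the genes were proposed with earlier results of these data known.

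The cells were hippocampal neurons of ICR mice, an outbred strain, taken from embryos at E17.5 and grown for 10 days in culture. All cultures belonged to 1 series of exposure to 50 µM bicuculline, and RNA was taken after 0, 30, 180 and 300 min, with 2 biological replicates per time on 8 Affymetrix Mouse Gene ST 1.0 arrays. Bicuculline blocks the GABA-A receptor, the main fast inhibitory receptor of the brain, and so raises excitatory firing. The labels name no vehicle-treated cultures at the later times, so time in culture and time in the drug cannot be told apart. They do not say whether the replicates came from separate dissections either, so each p-value below measures only the spread between these arrays.

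NF-kappaB is a family of dimers built from 5 related subunits. In resting cells most dimers are kept in the cytoplasm by inhibitor proteins of the I-kappaB family, of which Nfkbia encodes the best known. Signals from cytokine receptors, or in neurons from calcium entry at synapses, activate a kinase complex that marks the inhibitor for destruction, after which the dimer enters the nucleus. Several genes of the system, Nfkbia foremost, are themselves targets of NF-kappaB, which makes the inhibitor part of a feedback loop. These steps act on proteins, and the arrays measured RNA.

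Of 8 genes known for their response to activity, 7 rose at 30 min, 5 at 180 min and 5 at 300 min, each against 0 min (limma, adjusted over all genes). None fell after adjustment. Egr1, which rose at 30 min, was lower at 180 and 300 min at an unadjusted p under 0.05 (limma), with changes of -0.52 and -0.59. At that level 7.07% and 4.71% of all genes were lower. Npas4, an activity-induced transcription factor gene, had log2 signals of 9.67 and 9.72 at 30 min, against 5.67 and 5.96 at 0 min. Bdnf, which encodes a neurotrophin released at synapses, had 7.28 and 7.34 at 300 min, against 6.23 and 6.03 at 0 min. Both rose (limma adjusted p = 2.67e-09 for Npas4 at 30 min and 0.000593 for Bdnf at 300 min). Array medians ran from 4.84 to 4.88 on the log2 scale. The 95th percentile of 1027 olfactory receptor genes, 4.46, served as a mark of background, and each of the 9 NF-kappaB genes lay above it on all 8 arrays.

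No NF-kappaB gene passed the test in any comparison of single times. At 30 min against 0 min the count was 0 of 9 genes, where 0.0953% of all genes tested passed (limma with Benjamini-Hochberg adjustment over all genes, adjusted p under 0.05). At 180 min against 0 min it was 0 of 9, against 0.331% of all genes, and at 300 min against 0 min 0 of 9, against 0.286%. The F test over all times passed 0 of 9, against 0.813%. At an unadjusted p under 0.05, 1 gene (Nfkbiz) was higher at 30 min, 2 (Rel and Nfkbiz) at 180 min and 3 (Rel, Nfkbia and Nfkbiz) at 300 min, where 2.76%, 5.71% and 4.25% of all genes were. None of the 9 was lower at that level, where 2.34%, 7.07% and 4.71% of all genes were. The largest changes from 0 min were those of Rel and Nfkbiz, each 1.36-fold to 1.48-fold where the unadjusted p of that change was under 0.05. The other 7 genes lay between -0.08 and 0.29 on the log2 scale of change at every later time.

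**Figure D1:**
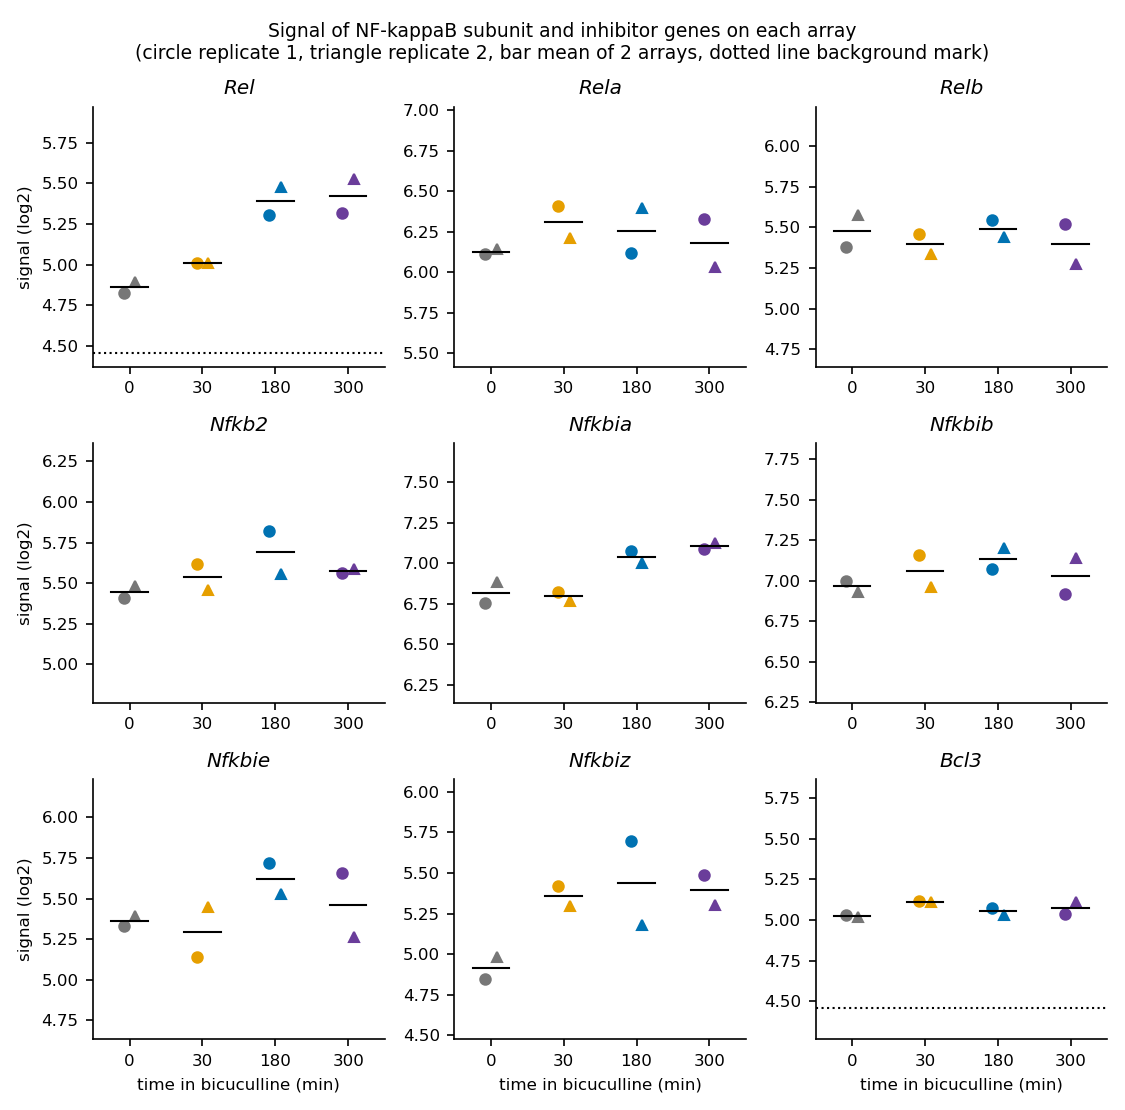
Log2 signal of the 9 measured genes on each array, by minutes in bicuculline, with a circle for replicate 1, a triangle for replicate 2 and a bar at the mean of 2 arrays. Every panel spans the same number of log2 units; the dotted line, drawn where it falls inside the panel, is the background mark at 4.46. Rel lies higher at 180 and 300 min, Nfkbiz is higher from 30 min on, and Bcl3 is nearly level.

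Rel encodes c-Rel, a subunit with a transactivation domain that is best known from lymphocytes and has been linked to memory in hippocampal work. Its log2 signals, with replicate 1 first here and below, were 4.83 and 4.89 at 0 min, 5.01 and 5.01 at 30 min, 5.31 and 5.48 at 180 min and 5.32 and 5.53 at 300 min. All 4 arrays of the late times lay above both arrays of 30 min, and these lay above both arrays of 0 min. The share of all genes with such an order was not counted. The change from 0 min was 0.15 ± 0.12 (SE, n = 2 arrays per time) at 30 min. It was 0.53 ± 0.12 at 180 min, a 1.45-fold difference with a 95% interval of 1.20-fold to 1.74-fold (limma adjusted p = 0.0984). At 300 min it was 0.56 ± 0.12, or 1.48-fold with an interval of 1.23-fold to 1.78-fold (limma adjusted p = 0.0875). Rel ranked 103rd of 19938 genes by p at 300 min and 147th at 180 min. From 30 to 180 min the change was 0.38 ± 0.12 (limma adjusted p = 0.259), and from 180 to 300 min it was 0.03 ± 0.12, with an interval of -0.24 to 0.30. When genes below the background mark were left out of the test, Rel passed at 300 min (limma adjusted p = 0.0473) and in the F test. Over all alternatives its adjusted p ran from 0.0588 to 0.392 at 180 min and from 0.0473 to 0.465 at 300 min, highest with every row of the table tested.

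With the 180 and 300 min arrays pooled against 0 min, a contrast chosen after the values of Rel had been seen and therefore no independent evidence, Rel was 0.55 ± 0.11 (SE) higher on the log2 scale. Its limma adjusted p was 0.0347, and 1 of the 9 genes was called, where 0.396% of all genes were called higher. That call held without replicate 1 of 180 min (limma adjusted p = 0.0393). It was lost when any other single array was left out, with adjusted p from 0.0514 to 0.258. Centring each array on its median gave 0.0515, and testing every row 0.298.

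The 250 bases before the start of Rel are shown as an example from the set. They hold a kappaB match close to the core of a cyclic AMP response element (CRE), the site of the factor CREB. Capitals mark the matches, and the letters are those of RefSeq on build GRCm38.p6, minus strand, chr11:23770970-23771219.
Rel: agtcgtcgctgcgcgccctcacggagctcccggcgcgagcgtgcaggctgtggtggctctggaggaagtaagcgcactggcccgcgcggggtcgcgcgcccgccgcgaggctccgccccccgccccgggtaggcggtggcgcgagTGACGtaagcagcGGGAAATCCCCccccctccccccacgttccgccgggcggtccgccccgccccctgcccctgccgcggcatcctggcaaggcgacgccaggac
The CRE core begins 105 bases before the start. The kappaB stretch, which is 2 overlapping matches, begins 92 bases before it. The pairing is not particular to Rel, since Nfkb2 has a core 45 bases and a kappaB match 39 bases before a start. The core has only 5 bases and was found in a window of 23.0% of all genes. Whether either site bears on the values of Rel was not tested.

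Among the other subunit genes, Nfkb2 encodes p100, the precursor of p52 in the non-canonical branch. It had log2 signals of 5.41 and 5.48 at 0 min, 5.62 and 5.46 at 30 min, 5.82 and 5.55 at 180 min and 5.56 and 5.59 at 300 min. Its late arrays lay above the 0 min arrays, by a change of 0.24 ± 0.13 (SE, limma adjusted p = 0.454) at 180 min and 0.13 ± 0.13 at 300 min. Rela, which encodes p65, the main transactivating subunit, ranged from 6.03 to 6.41. Both of its 30 min arrays (6.41 and 6.21) were above both 0 min arrays (6.11 and 6.14), whereas each late time overlapped the 0 min arrays. The largest change of Rela was 0.18 ± 0.14 at 30 min (limma adjusted p = 0.975). Relb, the partner of p52, ranged from 5.28 to 5.58, and its changes of -0.08, 0.02 and -0.08 at 30, 180 and 300 min were all smaller than their SE of 0.13.

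Nfkbia encodes I-kappaB-alpha, the inhibitor that is destroyed and resynthesised in the classical feedback loop. Its log2 signals were 6.76 and 6.89 at 0 min, 6.82 and 6.77 at 30 min, 7.08 and 7.00 at 180 min and 7.09 and 7.12 at 300 min. The first times overlapped, and all 4 late arrays lay above all 4 early ones. How many of all genes were ordered in this way was not counted. The change was -0.02 ± 0.12 (SE) at 30 min, with a 95% interval of 0.83-fold to 1.17-fold. Its sign turned after quantile normalization (0.0039), without replicate 2 of 0 min (0.041) and without replicate 2 of 30 min. The change was 0.22 ± 0.12 at 180 min (limma adjusted p = 0.458) and 0.29 ± 0.12 at 300 min (limma adjusted p = 0.474). The last was a 1.22-fold difference with an interval of 1.03-fold to 1.45-fold.

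The 250 bases before the start of Nfkbia are shown as the example of a feedback gene, with its kappaB match in capitals (RefSeq, GRCm38.p6, minus strand, chr12:55492648-55492897).
Nfkbia: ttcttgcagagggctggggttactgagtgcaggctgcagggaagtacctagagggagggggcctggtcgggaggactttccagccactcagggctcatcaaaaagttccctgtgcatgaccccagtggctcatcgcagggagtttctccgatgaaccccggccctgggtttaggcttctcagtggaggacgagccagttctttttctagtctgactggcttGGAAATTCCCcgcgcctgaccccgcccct
The match begins 29 bases before the start.

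The remaining classical inhibitor genes were Nfkbie and Nfkbib. Nfkbie, which encodes I-kappaB-epsilon, had log2 signals of 5.33 and 5.39 at 0 min, 5.14 and 5.45 at 30 min, 5.72 and 5.53 at 180 min and 5.66 and 5.26 at 300 min. Only its 180 min arrays stood clear of the 0 min arrays, with a change of 0.26 ± 0.15 (SE, limma adjusted p = 0.503), and its 300 min arrays lay on both sides of them. Nfkbib, which encodes I-kappaB-beta, ranged from 6.92 to 7.20 over the 8 arrays, and its largest change was 0.17 ± 0.13 at 180 min.

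Nfkbiz encodes I-kappaB-zeta, a nuclear member of the inhibitor family that binds NF-kappaB on DNA and is needed for some of its secondary targets in macrophages. Its log2 signals were 4.85 and 4.98 at 0 min, 5.42 and 5.30 at 30 min, 5.69 and 5.18 at 180 min and 5.49 and 5.30 at 300 min. Every array of a later time lay above both 0 min arrays, while the 3 later times overlapped one another. The change was already 0.44 ± 0.16 (SE) at 30 min, a 1.36-fold difference with a 95% interval of 1.08-fold to 1.72-fold (limma adjusted p = 0.866). It was 0.52 ± 0.16 at 180 min (limma adjusted p = 0.191) and 0.48 ± 0.16 at 300 min (limma adjusted p = 0.315). The arrays of 180 min differed widely from each other, so that the change at that time was 0.26 without replicate 1 and 0.78 without replicate 2, with limma adjusted p of 0.641 and 0.0538. Between 30 and 180 min the difference was 0.08 ± 0.16, with an interval of -0.26 to 0.41.

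Bcl3, a nuclear family member that binds homodimers of the p50 and p52 subunits, was the most even of the 9 genes, from 5.02 to 5.12. Its 95% intervals at the 3 later times together ran from -0.21 to 0.33; at 30 min the upper bound was a 1.26-fold increase.

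**Figure D2:**
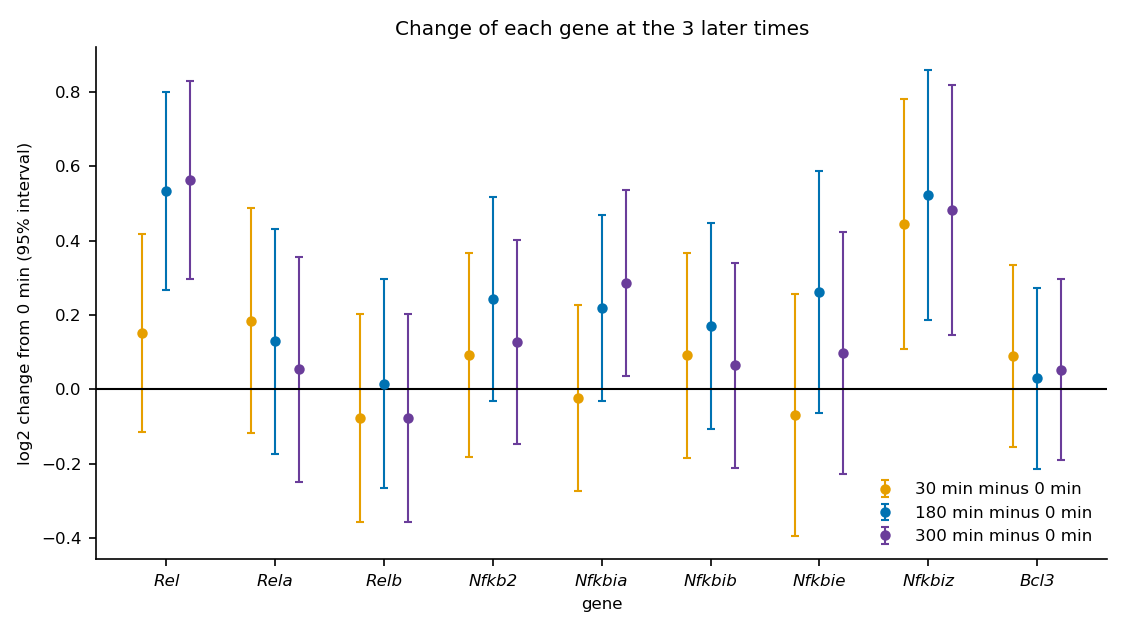
Log2 change of each gene at 30, 180 and 300 min, each less 0 min, with the 95% interval of the limma fit (2 arrays per time). The intervals of Rel at 180 and 300 min, of Nfkbiz at all 3 times and of Nfkbia at 300 min lie above 0, and all others include 0.

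Without reference to any threshold, 6 of the 9 changes were above 0 at 30 min, 9 at 180 min and 8 at 300 min, as were 50.2%, 49.9% and 49.4% of all genes. At 180 min Bcl3 turned negative after quantile normalization, and Bcl3 and Relb did with each array centred on its median. Relb also did without replicate 1 of 0 min or of 180 min, and Rela without replicate 2 of 180 min. Arrays of 2 times did not overlap, with the later time higher, for 4 genes at 30 min against 0 min, where this was so for 19.2% of all genes. The count was 7 at 180 min, against 21.1% of all genes, and 5 at 300 min, against 18.8%. Both counts include Bcl3, whose arrays were apart by only 0.00036 log2 units at 180 min and 0.0082 at 300 min. None of the 9 had both arrays of a later time below both of 0 min, as 18.3%, 22.6% and 19.6% of all genes did at 30, 180 and 300 min. The median change of the 9 genes was 0.09 at 30 min, 0.22 at 180 min and 0.10 at 300 min, against 0.00056, -0.00071 and -0.0025 over all genes. Over the alternatives the median at 30 min ran from 0.08 (median centring) to 0.15 (without 30 min replicate 2). At 180 min it ran from 0.18 (median centring) to 0.28 (without 0 min replicate 2). At 300 min it ran from 0.07 (median centring) to 0.20 (without 300 min replicate 2). These counts share the 0 min arrays between comparisons. At 180 min against 30 min 0 of the 9 genes passed, against 0.502% of all genes, with 2 (Rel and Nfkbie) higher at an unadjusted p under 0.05, against 4.82%. Arrays of these times did not overlap for 3 genes higher at 180 min (Rel, Nfkbia and Nfkbie), against 18.2% of all genes, and for 1 lower (Bcl3), against 22.4%. From 180 to 300 min 0 of the 9 passed, as did 0% of all genes (limma, with 0 of the 9 and 5.72% of all genes at an unadjusted p under 0.05). Changes from 180 to 300 min lay between -0.16 for Nfkbie and 0.07 for Nfkbia.

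The kappaB match seen before Rel and Nfkbia was searched for in the other members. RefSeq windows of 300 bases, from 250 before to 50 after a start, were at hand for 7 of the 9 genes, with 3 windows for Nfkb2. The degenerate decamer consensus of kappaB sites, searched on both strands, was found in a window of 5 of these 7 genes (Rel, Nfkb2, Nfkbia, Nfkbie and Bcl3), against 8.46% of all 32851 windows and 9.55% of the 27025 genes that have one. Rela and Nfkbib had no match in these windows. The matches of the other 3 genes, in capitals with 8 bases on each side, show how the letters differ between members (RefSeq, GRCm38.p6).
Nfkb2, plus strand, chr19:46304690-46304715: atcgtcacGGGAATTCCCcccctcgg
Nfkb2, plus strand, chr19:46305697-46305722: gtattttcGGGACTTTCCtaagcagc
Nfkbie, plus strand, chr17:45555586-45555611: agcaaacaGGGGGATTCCggaggggc
Bcl3, minus strand, chr7:19822736-19822761: ggcggcagGGGAAGTCCCgctgcccg
Nfkb2 held 3 further matches, of which 1 overlaps the first stretch.

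Motifs of activity-regulated factors were searched in the same windows on both strands. The CRE core TGACG was found for Rel, Nfkb2 and Nfkbib, against 20.8% of all windows and 23.0% of all genes with a window. The full CRE TGACGTCA, which contains it, was found for 0 of the 7 genes, against 1.79% of windows and 2.03% of genes. The AP-1 motif TGANTCA was found for Nfkb2 and Nfkbie, against 7.81% of windows and 8.97% of genes. The CArG box of serum response factor was found for 0 of the 7, against 1.63% of windows and 1.81% of genes. A match describes the letters of the window and does not show binding.

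Genes that act above NF-kappaB or against it were examined next. Of 31 listed genes of upstream signalling, namely receptors, adaptors and kinases, 25 were measured, and 0 rose or fell over all genes in the comparisons with 0 min (limma). The shares of all genes that passed are given above. At an unadjusted p under 0.05, 2 were higher at 30 min (2.76% of all genes) and 1 was lower at 180 min (7.07% of all genes). At 300 min, 1 was higher (4.25% of all genes) and 1 lower (4.71%). The median change was 0.0023, 0.08 and 0.02 at the 3 later times. The members with the smallest F test p were Tlr4, the receptor for bacterial lipopolysaccharide, Ltbr, the lymphotoxin beta receptor, Malt1, a protease of the CARD-BCL10-MALT1 complex, and Traf2, an adaptor of TNF receptors. Tlr4 and Malt1 averaged 3.33 and 4.44 over the arrays, below the background mark. Malt1 had log2 signals of 4.42 and 4.24 at 0 min, 4.17 and 4.39 at 30 min, 4.78 and 4.42 at 180 min and 4.65 and 4.48 at 300 min, with all times overlapping 0 min except the last.

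Of 12 other inhibitors of the pathway, all measured, 0 rose or fell (limma), beside the same shares of all genes that passed. At an unadjusted p under 0.05, 1 was higher at 180 min, where 5.71% of all genes were. At that level 1 was lower at 180 and at 300 min, where 7.07% and 4.71% of all genes were. The median change was -0.02, -0.06 and 0.03 at the 3 later times. The lower one was Cyld, a deubiquitinase that removes the chains on which signalling complexes assemble. It had log2 signals of 6.28 and 6.23 at 0 min, 6.29 and 6.07 at 30 min, 5.85 and 5.73 at 180 min and 5.93 and 5.85 at 300 min. All 4 late arrays lay below all 4 early arrays, an order whose share over all genes was not counted. Its changes were -0.47 ± 0.12 (SE, limma adjusted p = 0.142) at 180 min and -0.36 ± 0.12 (0.345) at 300 min. The higher one was Tnip2, a partner of the ubiquitin-editing protein A20, with a change of 0.44 ± 0.13 (limma adjusted p = 0.167) at 180 min. Tnfaip3, the gene of A20 and a standard NF-kappaB target, had changes of -0.06, 0.12 and 0.20. Otud7b, a deubiquitinase, and Nkrf, a repressor of NF-kappaB promoters, were next by F test p. Otud7b had changes of -0.02, -0.06 and -0.24 at 30, 180 and 300 min, and Nkrf had -0.16, -0.26 and 0.0021.

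**Figure D3:**
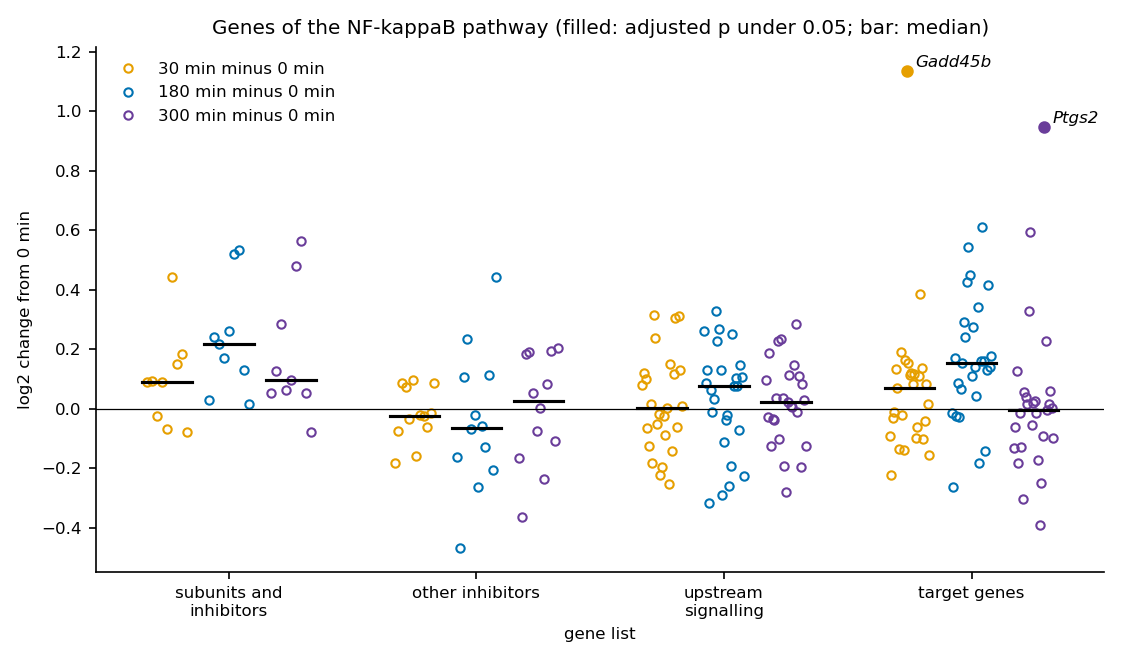
Log2 change from 0 min of each measured gene in 4 lists (9 subunits and inhibitors, 12 other inhibitors, 25 upstream genes, 27 targets) at 30, 180 and 300 min, with filled circles for an adjusted p under 0.05 and bars at the medians. The filled circles are Gadd45b at 30 min and Ptgs2 at 300 min, both targets.

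Of 27 known NF-kappaB target genes, all measured and 19 of them above the background mark, 1 rose at 30 min, 0 at 180 min and 1 at 300 min, and none fell (limma, over all genes). In either direction, 0.0953%, 0.331% and 0.286% of all genes tested passed at these times. At an unadjusted p under 0.05, 2 were higher at 30 min, 5 at 180 min and 3 at 300 min, and 1 was lower, at 300 min. Of all genes, 2.76%, 5.71% and 4.25% were higher at these times, and 4.71% were lower at 300 min. The median change was 0.07, 0.15 and -0.0043 at 30, 180 and 300 min, beside the values over all genes given above. Both genes that rose are also known as activity-regulated genes of neurons. Gadd45b, a stress-response gene, had log2 signals of 7.47 and 7.41 at 30 min, against 6.21 and 6.41 at 0 min, a 2.20-fold difference (log2 change 1.14 ± 0.18 SE, limma adjusted p = 0.0198). Ptgs2, the gene of cyclooxygenase-2, had 5.94 and 5.79 at 300 min, against 4.84 and 4.99 at 0 min, a 1.93-fold difference (log2 change 0.95 ± 0.17 SE, limma adjusted p = 0.0332). Gadd45b lost its call without either array of 30 or of 0 min (adjusted p between 0.126 and 0.303). Ptgs2 lost it without either array of 0, 30 or 300 min (0.0559 to 0.260). Both lost it when every row was tested (0.518 and 0.460).

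Icam1, an adhesion gene, had log2 signals of 6.33 and 6.43 at 0 min, 6.58 and 6.49 at 30 min, 6.91 and 6.75 at 180 min and 6.41 and 6.24 at 300 min. It stood highest at 180 min and was back among the 0 min values at 300 min, with changes of 0.45 ± 0.12 (SE, limma adjusted p = 0.156) and -0.05 ± 0.12. Lcn2, the gene of lipocalin-2 and a marker of reactive astrocytes, had changes of 0.34 ± 0.18 at 180 min and -0.39 ± 0.18 at 300 min (limma adjusted p = 0.451 and 0.543).

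NF-kappaB genes are also expressed in glia, whose share of a culture can shift, and in a bulk sample fewer cells of a type cannot be told apart from less RNA per cell. All 10 neuron markers lay above the background mark, as did 9 of 9 astrocyte, 8 of 11 microglia, 6 of 7 oligodendrocyte lineage and 6 of 10 vascular and meningeal markers. The microglia markers Itgam, P2ry12 and Ptprc lay below it. No marker passed in a comparison with 0 min (limma). At an unadjusted p under 0.05, 2 astrocyte markers, 1 neuron marker and 1 vascular or meningeal marker were higher at 30 min. Of the astrocyte markers, 3 were lower at 180 min and 1 at 300 min. Of the microglia markers, 1 (Cd68, with a change of 0.44) was higher at 180 min and 1 was lower at 300 min. The shares of all genes at that level are given above. The mean log2 level over the 11 microglia markers was 4.98 to 5.09 at 0 min, 4.97 to 5.11 at 30 min, 5.04 to 5.20 at 180 min and 4.94 to 4.97 at 300 min. The mean over the 9 astrocyte markers was 6.36 to 6.61 at 0 min, 6.48 to 6.61 at 30 min, 6.33 to 6.50 at 180 min and 6.23 to 6.47 at 300 min. The mean of the neuron markers stayed between 9.13 and 9.27. The part of these cells in the values of Rel, Nfkbiz and the other NF-kappaB genes, and of Icam1 and Lcn2, was not tested.

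Rel had the smallest F test p of the 9 genes (limma adjusted p = 0.0737), and genes with a pattern like it were looked up. Likeness was the root mean square difference over the 8 arrays after each gene was set to 0 at its 0 min mean. The nearest were Sertad1, a regulator of cyclin-dependent kinase 4 (0.076 log2 units), Ppp1r13l, an inhibitor of p53 (0.088), Midn, the midnolin gene (0.094), Emd, the gene of the nuclear envelope protein emerin (0.097), and Sik1, a salt-inducible kinase gene (0.099). None passed the F test. Their changes at 300 min ran from 0.42 for Ppp1r13l to 0.60 for Midn, beside 0.56 for Rel. The genes were picked for likeness on these same arrays, so this nearness follows from the choice.

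**Figure D4:**
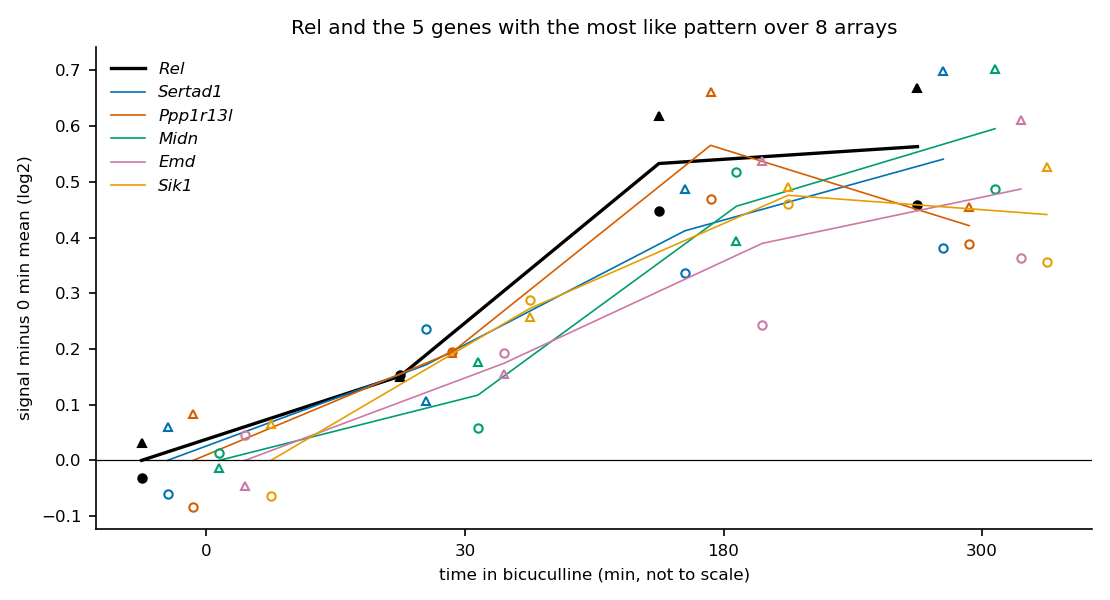
Log2 signal of Rel and of the 5 genes with the most similar pattern, less each gene's 0 min mean, by minutes in bicuculline (times evenly spaced), with circles for replicate 1, triangles for replicate 2 and lines through the means. All 6 genes lie higher at 180 and 300 min than at 0 min, with Rel at 0.53 and 0.56. For the 5 genes this follows from how they were picked.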

How the data were processed

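Per the labels' protocols, biotin-labelled RNA of 8 cultures was hybridised to 8 arrays. The deposited values were 1 log2 signal per transcript cluster and array. Base 2 was taken from the values (1.22 to 14.96). The authors' background correction, summary, normalization and build are not given in the sources used here. Any background that was not removed would make changes of weakly expressed genes look smaller. Of 35399 rows, 21789 had 1 symbol in the platform annotation (1621 several, 11989 none), and the cluster with the highest mean stood for each of 19938 genes.

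A mean per time was fitted to all arrays with limma 3.58.1 in R 4.3.3 (lmFit, eBayes, 4 residual degrees of freedom, two-sided tests). P-values were Benjamini-Hochberg adjusted over all genes at 0.05. The number of arrays limits precision. The code was tested on simulated data. Groups and replicate numbers came from the labels. Replicate arrays correlated at 0.985 to 0.990 across rows, and none were copies. Alternatives were quantile normalization, median centring, a filter on dim genes, every row, another variance prior, a replicate block, the 4 arrays compared, and leaving out each array. All members were named, and of each list those passing and up to 4 with the smallest F test p. Npas4, Bdnf and Egr1 were named as activity-regulated genes, Egr1 and Tnfaip3 after their values were seen, and the 5 genes nearest to the member with the smallest F test p by pattern. Members and lists were chosen with earlier results of these data known.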

Additional observations from a re-analysis of the deposited data

How the results depend on the processing

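No alternative ended or turned a call of an NF-kappaB gene in a comparison of single times, since none was called, and the filter on dim genes added 1 (Rel) at 300 min against 0 min and 1 (Rel) in the F test. Of 675 recomputed changes of the 9 genes (5 comparisons, 15 settings), 32 had the other sign, 28 of them without an array. All were of genes whose main change was 0.16 or less in size on the log2 scale. Many of the 675 could not differ from the main change. The dim filter, every row, the other prior, the replicate block and the 4 arrays alone alter the test and not the change. Leaving out an array of a time outside the comparison does not alter the change either. The 32 are therefore no measure of how stable the signs are. Counts over all genes moved more. At 180 min against 0 min 66 genes passed, and 102 with the dim filter, 1 with every row tested, 108 with a trended robust prior, 19 with the 4 arrays alone and 15 to 68 without 1 array. The split of higher and lower genes was 42 to 24, 48 to 17 after quantile normalization and 31 to 30 after median centring. At 300 min 57 passed, and 99, 5 and 91 under the first 3 of these and 17 to 61 without 1 array. From 30 to 180 min 100 passed, and 9 with every row, 156 with the trended prior, 55 with the 4 arrays and 17 to 93 without 1. At 30 min 19 passed, and 12 to 21 without 1 array. From 180 to 300 min 0 passed, and 0 to 14 without 1. In the F test 162 passed, and 13 with every row, 255 with the trended prior and 49 to 171 without 1. With the late times together, a contrast added after the data were seen, 134 passed, and 220 with the dim filter, 7 with every row and 28 to 122 without 1, and the 1 NF-kappaB gene became 0 with median centring or every row and 0 to 1 without an array (Nfkbiz in place of Rel without 180 min replicate 2). The split was 79 to 55, and 96 to 46 or 62 to 68 under the 2 scalings. Apart from fewer arrays or other genes tested, the cause was not tested. Same-numbered replicates showed little shared deviation (correlations of -0.094 to 0.092). Such values cannot show whether cultures of the same number shared a dissection. The replicate block gave 53 genes at 180 min, 49 at 300 min and a limma adjusted p of 0.0849 for Rel at 300 min. No other transcript cluster of a member existed to compare.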
